A study of Saccharomyces cerevisiae with 31 samples.

Results

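Unelutriated Cdc28-as cells of budding yeast (Saccharomyces cerevisiae), held in cell cycle arrest by the inhibitor 1NM-PP1, were set against unelutriated wild-type (WT) cells given the same inhibitor, gene by gene and by rank. The comparison covered 4256 of the 6713 genes in the authors' deposited table of scaling scores. Members were the genes with a score in both series (6305 genes) and a deposited median read count of at least 10, and 4216 of them matched a locus tag of the R64 reference. The read count comes from the first elutriation experiment, not from the series compared here.

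Cdc28 is the cyclin-dependent kinase of the yeast cell cycle. The Cdc28-as allele makes it sensitive to 1NM-PP1, a bulky compound that leaves the normal kinase largely free. The arrest series held 8 libraries from cells of 21.56 to 44.02 fl (femtolitres), and the first 2 of them shared the size of 21.56 fl. The WT series held 6 libraries, taken between 0 and 6 h after the compound was added. Both series grew in YEP with 1% ethanol, and both had Candida albicans cells added before total RNA was extracted. Another 4 series of the study used elutriated cells, sorted by size in a centrifuge, and serve here only to show where the unelutriated arrest stood apart. The sources used here give neither times for the arrest libraries nor sizes for the WT libraries. Cells enlarge as an arrest goes on, so size and time in the arrest cannot be told apart.

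Inhibition of Cdc28 in G1 stops budding and DNA replication while protein synthesis and growth go on, which is why such cells become very large. Unelutriated cultures were not sorted by size, so their cells could be at any stage of the cycle when the compound was added. In G1 the cyclin Cln3 with Cdc28 relieves the repressor Whi5 and so activates the transcription factors SBF and MBF, whose targets include the cyclins CLN1 and CLN2 and the genes of DNA synthesis. The making of ribosomes is the largest investment of a growing yeast cell and is set by nutrient signals. On ethanol the cells respire, and they need the tricarboxylic acid (TCA) cycle, the glyoxylate cycle and gluconeogenesis.

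The authors' score is 1 number per gene and series, in units per fl of cell size for the arrest and per hour for WT. On the WT axis the values behave as the slope of a gene's abundance relative to the first library. A gene detected in that library alone would score -0.106 per hour, and 44 genes of the table hold exactly this value (within 1e-07). In the arrest the matching value of -0.0174 per fl is held by 3 genes, none of them a member, so the same formula was assumed there. Because the units differ, each gene is given by its percentile among the 4256 members, where 0 is the lowest score of a series and 100 the highest. The table has no value per library, so no gene has a replicate error and no difference below was tested. The libraries are of bulk RNA, in which fewer cells of a type and less RNA per cell cannot be told apart.

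Most scores were negative in the arrest, less often so in WT. The arrest scores of the members had a median of -0.0201 per fl, with 5% and 95% limits of -0.0365 and -0.00386 per fl, and 139 members (3.27%) lay above 0. The WT scores had a median of -0.0438 per hour, with limits of -0.187 and 0.27 per hour, and 1441 members (33.9%) lay above 0. Over all nuclear genes the medians were -0.0202 per fl in the arrest and -0.039 per hour in WT. On this reading 0 stands for no change on the authors' own scale, and the sources used here do not say whether the added Candida reads set that scale. Percentiles do not change if a constant is added to all scores of a series. A different scaling of the libraries could change the order of genes, and its effect was not tested.

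The gene orders of both series were weakly related. Spearman's rank correlation across the 4256 genes was 0.19, as a description, since genes share libraries and are not replicates. Of the genes in the upper 25% of the arrest, 38.3% were also in the upper 25% of WT and 17.1% in its lower 25%. Of the genes in the lower 25% of the arrest, 32% were in the lower 25% of WT and 18.6% in its upper 25%. After the median nuclear gene was subtracted, 1173 genes (27.6%) lay above it in both series, 971 (22.8%) only in the arrest, 864 (20.3%) only in WT and 1248 (29.3%) in neither.

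The order was related more closely among genes with more reads. The rank correlation was 0.12 for the 1117 genes with 10 to 20 reads, 0.12 for the 1657 with 20 to 50, 0.20 for the 826 with 50 to 100, 0.32 for the 450 with 100 to 200, and 0.29 for the 206 genes with 200 or more. These last genes also ranked high, with a median percentile of 79 in the arrest and 76.3 in WT. Reads therefore moved with rank in both series, and their part in the ranks was not tested. The best-read genes include repeated copies of Ty retrotransposons, taken up below. YJR029W, for example, had 885 reads and stood at 98.1 in the arrest and 82.6 in WT. The groups by reads were not recomputed without these copies.

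Genes were counted as higher in the arrest where their percentile lay at least 50 points above that in WT, and as lower where it lay at least 50 points below. Of the 4256 genes 391 (9.19%) were higher in the arrest and 425 (9.99%) lower. A further 407 genes (9.56%) had a percentile of at least 75 in both series, and 340 (7.99%) had one of at most 25 in both. These shares are the background against which each gene list below is read. At the edges, KAR2, the Hsp70 chaperone of the endoplasmic reticulum, was counted at a difference of 50.07 points and MIC26 was not at 49.88. MED4, a subunit of Mediator, was counted as lower at -50.02 points and YLR202C was not at -49.98. At the read minimum, 72 genes had exactly 10 reads, with median scores of -0.0212 per fl in the arrest and -0.0627 per hour in WT, and 67 genes left out had 9.5 reads, with medians of -0.0232 and -0.0616 in the same order.

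**Figure D1:**
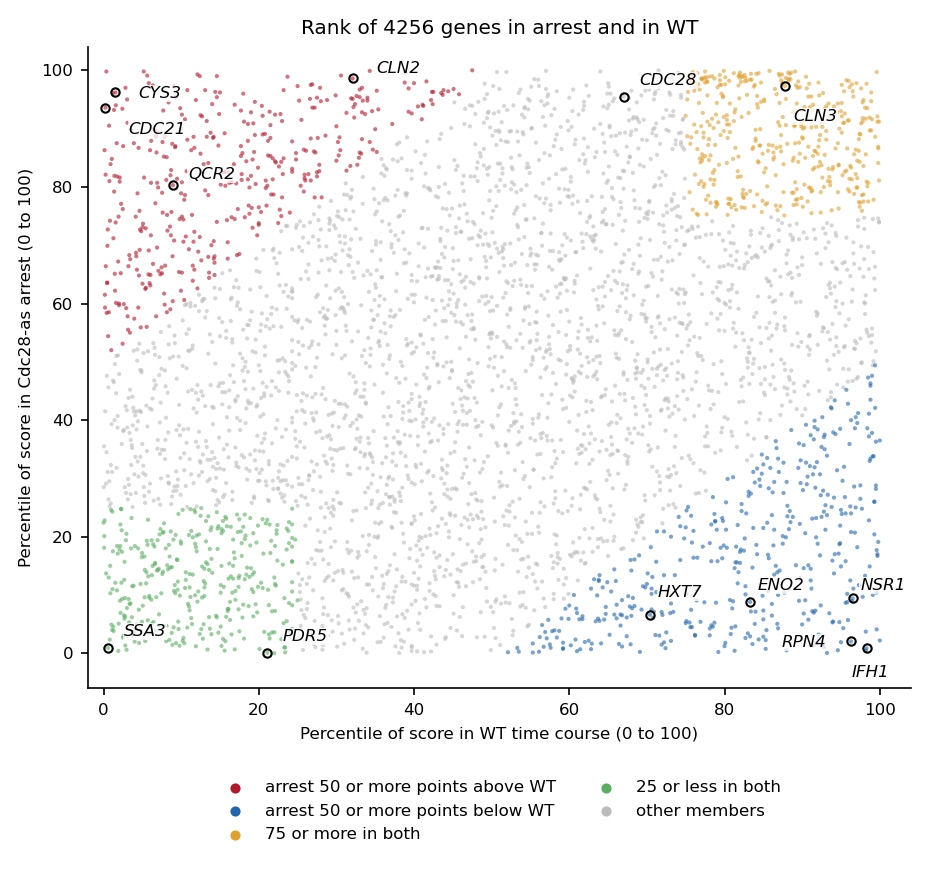
Percentile of the score in the unelutriated Cdc28-as arrest (vertical axis, 0 to 100) against that in the WT time course (horizontal axis, 0 to 100), 1 point per gene for 4256 genes. Colours mark the 391 genes higher in the arrest, the 425 lower, the 407 high in both and the 340 low in both. The points fill the whole square, with CYS3 and CDC21 at the upper left, IFH1 and RPN4 at the lower right, CLN3 at the upper right and SSA3 at the lower left.

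The kinase subunits and cyclins of G1 ranked near the top of the arrest. CDC28, the gene of the inhibited kinase, scored -0.00313 per fl in the arrest (percentile 95.5) and 0.00225 per hour in WT (percentile 67). The allele changes the protein and not the gene's presence, so this value does not check the labels. CLN2 ranked at percentile 98.6 in the arrest and at 32.1 in WT, with scores of 0.0147 per fl and -0.087 per hour. The other G1 cyclins were high in both series. CLN3 stood at 97.3 in the arrest and 87.8 in WT, and CLN1 at 97 in the arrest and 89.4 in WT. CKS1, which encodes the small subunit that binds Cdc28, stood at 90.2 in the arrest and 49.8 in WT. Of the inhibitors of Cdc28, FAR1, which acts in the pheromone response, stood at 96.5 in the arrest and 68 in WT, whereas SIC1, which blocks B-type cyclins in G1, stood at 19.3 in the arrest and 64.9 in WT.

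B-type cyclins, which drive DNA replication and mitosis, had few reads, and only CLB3, CLB4 and CLB5 were members. CLB5, the S-phase cyclin, ranked at 79.2 in the arrest and 1.37 in WT. CLB3 ranked at 68.3 in the arrest and 31.5 in WT, and CLB4 at 44.6 in the arrest and 1.63 in WT. All 3 therefore ranked higher in the arrest, though only CLB5 passed the 50-point limit. WHI5 had fewer than 10 reads and was not a member.

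SBF consists of Swi4 and Swi6, and MBF of Mbp1 and Swi6, so Swi6 is the shared subunit. SWI6 ranked at 70.6 in the arrest and 11.6 in WT, and SWI4 at 82.7 in the arrest and 27.8 in WT, both past the limit of 50 points. MBP1 went the other way, at 5.2 in the arrest and 40.5 in WT, short of the limit. WHI3, whose product binds CLN3 mRNA, was counted as lower, at 23.2 in the arrest and 79.7 in WT. STB1, which encodes a partner of Swi6, was high in both, at 95.5 in the arrest and 90.8 in WT.

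Targets of SBF and MBF, the G1/S regulon, ranked high in the arrest and in the middle in WT. The 52 members of this list had a median percentile of 77.1 in the arrest (interquartile range 67 to 84.7) and 53.4 in WT (31.5 to 76.2). In the arrest 47 of the 52 lay above the median gene, against 28 in WT. Of the 52 genes 10 were higher in the arrest and 0 lower, beside 9.19% and 9.99% of all members, and 10 were high in both. CDC21, which encodes thymidylate synthase, ranked at 93.6 in the arrest and 0.247 in WT. CDC9 (DNA ligase), CDC45 (a subunit of the replicative helicase) and RFA2 (single-strand binding) ranked at 91.3, 92.2 and 84.2 in the arrest and at 13.3, 20.5 and 22.2 in WT. RNR1, the large subunit of ribonucleotide reductase, ranked high in both, at 76.6 in the arrest and 90.1 in WT. RAD54, which acts in recombinational repair, was the lowest of the list against WT, at 1.96 in the arrest and 35.7 in WT. RAD54 aside, the genes named in this paragraph stood above the median gene in the arrest, and in WT only RNR1 did. CDC9, CDC45, RFA2 and RNR1 were named after their values were seen. CDC21, CDC9, CDC45 and RFA2 are among the 10 counted as higher, so their contrast follows from that count and does not stand for the list.

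The MCB is the motif bound by MBF, with the letters ACGCGT. It was searched on both strands in the window from 250 bases before to 50 after the start of the coding sequence, in the R64 genome of RefSeq, for 4213 members. It stood in 51.9% of the G1/S promoters and in 3.23% of all promoters. The SCB, the motif of SBF with the letters CGCGAAA, stood in 13.5% of the G1/S promoters and in 3.51% of all. The windows of 3 of the G1/S genes named above are shown, with the MCB in capitals. CDC21 (chrXV:467694-467721, minus strand) and CDC45 (chrXII:346075-346102, minus strand) hold 2 matches each, of which 1 is shown, and CDC9 (chrIV:167363-167390, minus strand) has an SCB that runs straight into its MCB.
CDC21: gaccttaattgACGCGTttcctgaaata
CDC45: catatcatctaACGCGTtttaagaaatt
CDC9: ttaacgcgaaaACGCGTgaaagtgaaat
Within the list the motif did not separate the genes. The 27 genes with an MCB had median percentiles of 77.6 in the arrest and 54.4 in WT, and the 25 without one had 76.6 in the arrest and 52.4 in WT. Over all members, the 136 genes with an MCB had medians of 63.9 in the arrest and 56.6 in WT, and the 4077 without one had 49.5 in the arrest and 49.7 in WT.

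Genes of later cell cycle phases varied. The 15 genes of the CLB2 cluster, transcribed in G2 and M, had medians of 68.9 in the arrest and 68.6 in WT, with 3 higher in the arrest and 1 lower, and 13 of them ranked above percentile 50 in the arrest, against 10 in WT. Their median difference was -5.08 points, against 19.2 points over all 23 scored genes of the cluster without a read minimum, so its direction rests on the minimum. CDC5, the polo kinase, ranked at 82.6 in the arrest and 15.6 in WT, and CYK3, a cytokinesis gene, at 32.7 in the arrest and 87.6 in WT. The 12 genes of M/G1 and of daughter cells had medians of 30.1 in the arrest and 52.7 in WT. ASH1, a repressor of mating-type switching in daughter cells, ranked at 6.64 in the arrest and 65.8 in WT. The 7 core histone genes had medians of 56.4 in the arrest and 51.7 in WT. Gene by gene, however, their median difference was -5.22 points, and 3 of the 7 ranked higher in the arrest. HHT1 (histone H3) alone passed the limit, at 33.4 in the arrest and 86.9 in WT. HHT2, which encodes the same protein, stood at 68.7 in the arrest and 37.4 in WT, and reads of the paired histone genes may be shared.

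**Figure D2:**
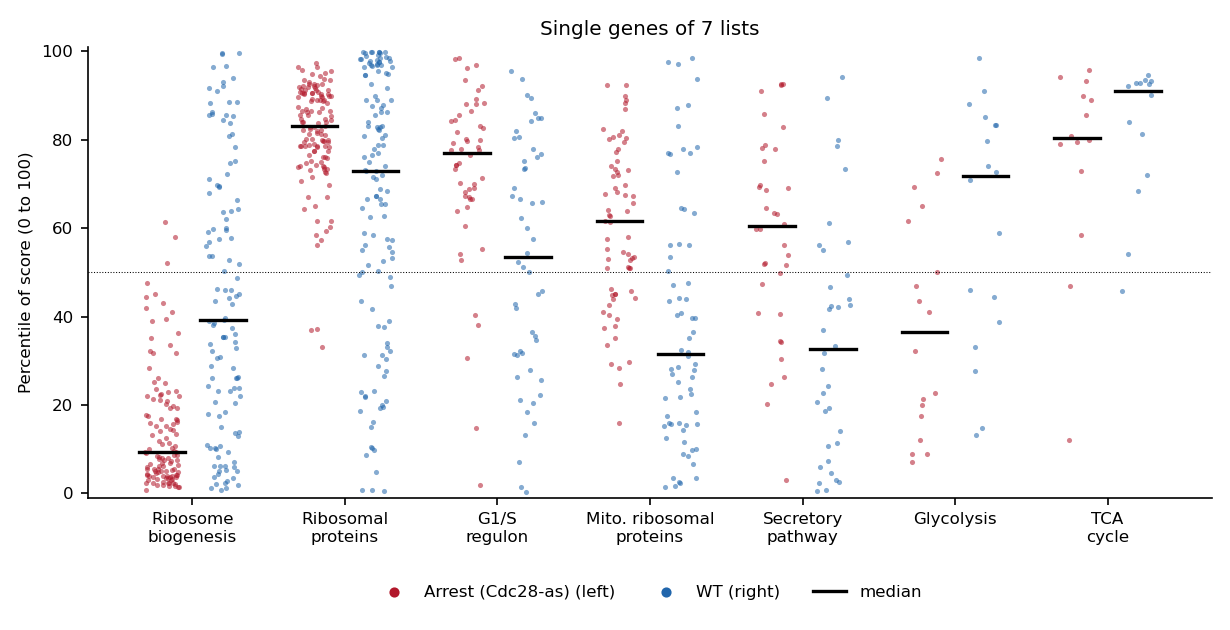
Percentile of the score (vertical axis, 0 to 100) for each gene of 7 lists, with the Cdc28-as arrest left in red and WT right in blue, and the median as a bar. Ribosome biogenesis genes crowd below 25 in the arrest and spread over the whole axis in WT, and ribosomal protein genes crowd between 76.2 and 90.3 in the arrest.

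Ribosome biogenesis genes, whose products build ribosomes in the nucleolus but do not stay in them, stood at the bottom of the arrest. The 120 members had a median percentile of 9.26 in the arrest (interquartile range 4.34 to 21.1) and 39.2 in WT (17.8 to 68.3). In the arrest 3 of the 120 lay above the median gene, against 49 in WT. Of the 120 genes 36 were lower in the arrest and 0 higher, beside 9.99% and 9.19% of all members, and 35 were low in both, beside 7.99%. NSR1, which encodes nucleolin, scored -0.0324 per fl in the arrest (percentile 9.41) and 0.337 per hour in WT (percentile 96.5). SSF1, which acts in the large subunit pathway, ranked at 4.1 in the arrest and 99.6 in WT, and DBP7, an RNA helicase, at 2.43 in the arrest and 92.2 in WT. RRP9, a protein of the U3 particle, had the largest difference in favour of the arrest, at 52.1 in the arrest and 4.36 in WT, which was short of the limit. NSR1, SSF1 and DBP7 were thus among the low genes of the arrest and among the highest of WT, while the list as a whole was wide in WT.

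IFH1, which encodes a coactivator of ribosomal protein genes, showed a larger difference than any ribosome biogenesis gene. It scored -0.0509 per fl in the arrest (percentile 0.858) and 0.533 per hour in WT (percentile 98.3). The 17 genes for RNA polymerases I and III, the enzymes behind rRNA and tRNA, had medians of 26.2 in the arrest and 25.5 in WT. Only 1 of them ranked above percentile 50 in the arrest and 3 did in WT, while 2 met the limit of 25 in both series. RPA190, the largest subunit of RNA polymerase I, ranked at 26.2 in the arrest and 6.47 in WT, and RPC19, shared by both enzymes, at 15.6 in the arrest and 81.6 in WT. RPA14, another subunit of RNA polymerase I, was alone above the median gene in the arrest, at 96.2 in the arrest and 15 in WT, and it overlaps the annotated gene YDR157W, with which its reads may be shared. RPA190 was named after its values were seen.

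The promoters of ribosome biogenesis genes carry the motifs PAC (GATGAG) and RRPE (AAAATTT), which are textbook features of this regulon. PAC stood in 92.5% of the list's promoters and in 20.4% of all promoters, and RRPE in 93.3% and 24%. The PAC windows of NSR1 (chrVII:807827-807854, minus strand), SSF1 (chrVIII:229227-229254, plus strand) and DBP7 (chrXI:487495-487522, minus strand) are shown because these genes carried the contrast described above. Capitals mark the motif, which reads CTCATC where it lies on the other strand. SSF1 holds 2 overlapping matches, of which 1 is in capitals.
NSR1: tgcaagggcagCTCATCgcaagaacgaa
SSF1: aagaagctcatCTCATCgcgatattagt
DBP7: gaaaaatttgcGATGAGcttaggaaaat
All members were then split by score into 4 groups of equal size. From the lowest to the highest group the share of promoters with PAC was 27.4, 20.4, 17.2 and 16.4% in the arrest, and 21.7, 17.6, 20.4 and 21.7% in WT. The share thus went down with rank in the arrest, with no such order in WT. The ribosome biogenesis list itself weighs on the lowest group of the arrest. Of its 120 promoters 111 hold PAC, and its upper quartile in the arrest was at percentile 21.1. Ty retrotransposon genes, taken up below, weigh on the highest groups, since 48 of their 85 promoters (56.5%) hold PAC. Their interquartile range was 83 to 99.1 in the arrest and 76.6 to 87.4 in WT. They are repeated copies. The shares were not recomputed without the Ty genes or without the ribosome biogenesis list. The 357 genes with both motifs had median percentiles of 26.9 in the arrest and 43 in WT. Most of these 357 genes, 252, are outside the ribosome biogenesis list, and they had medians of 37.5 in the arrest and 43.2 in WT, beside 50 in both for all members. Gene by gene, the median difference of these 252 was only -0.223 points, against 0.658 for all members.

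**Figure D3:**
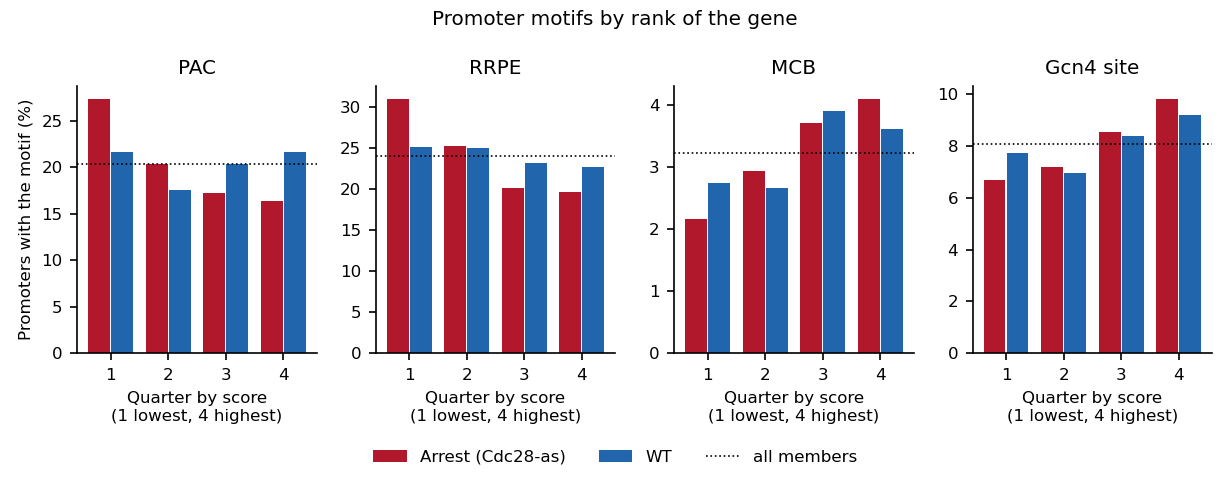
Share of promoters with each motif (vertical axis, per cent, each panel with its own scale from 0) in 4 equal groups of members by score, lowest to highest, for the arrest in red and WT in blue. The dotted line is the share over all members. PAC shares are 27.4% in the lowest and 16.4% in the highest group of the arrest, and 21.7% in both end groups of WT.

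Cytosolic ribosomal protein genes stood at the other end of the arrest from the genes that assemble their products. The 129 members had a median of 83.1 in the arrest (interquartile range 76.2 to 90.3) and 73 in WT (43.6 to 94.6), and 126 of 129 lay above the median gene in the arrest, against 93 in WT. Of the 129 genes 22 were higher in the arrest and 0 lower, and 50 were high in both, beside 9.56% of all members. RPS22A ranked at 90.5 in the arrest and 0.717 in WT, RPS12 at 88.4 in the arrest and 27.6 in WT, and RPS30A at 60.3 in the arrest and 96.4 in WT. The arrest thus held the list in a narrow band, and WT spread it over the whole range. Many of these genes exist as near-identical pairs between which reads may be split, and RPS22B, the partner of RPS22A, stood at 37.2 in the arrest and 28.8 in WT. The list also has a median of 152 reads, against 34 for all members, and well-read genes ranked high in both series.

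Mitochondrial ribosomal proteins and the secretory pathway ranked above the middle in the arrest and below it in WT. The 68 mitochondrial ribosomal protein genes had medians of 61.5 in the arrest and 31.5 in WT, with 9 higher in the arrest and 1 lower, and 51 of the 68 ranked higher in the arrest by any margin. MRPS5 ranked at 89.8 in the arrest and 3.54 in WT, and MRPL9 at 87 in the arrest and 2.53 in WT. RML2 was the exception past the limit, at 39.5 in the arrest and 97.1 in WT. The 36 genes of the secretory pathway and of folding in the endoplasmic reticulum had medians of 60.4 in the arrest and 32.5 in WT, and 30 of the 36 ranked higher in the arrest by any margin. Of these 36 genes 6 were past the limit, all upward, and OST4, a subunit of the oligosaccharyltransferase, led them at 91 in the arrest and 3.09 in WT. The count of 6 of 36 is above the 9.19% of all members, and that of 9 of 68 only a little above it.

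Genes of respiration were high in both series, with some subunits low in WT alone. The 36 nuclear genes of the respiratory chain and ATP synthase had medians of 76.3 in the arrest and 68.9 in WT, and 14 of them were high in both. QCR2, a subunit of complex III, ranked at 80.3 in the arrest and 8.94 in WT, whereas RIP1, the Rieske protein of the same complex, ranked at 60.3 in the arrest and 89.8 in WT. The 14 genes of the TCA cycle had medians of 80.4 in the arrest and 91.2 in WT, and 8 of the 14 were high in both. IDH1, a subunit of isocitrate dehydrogenase, ranked at 85.5 in the arrest and 92.9 in WT. The respiratory chain and TCA lists have medians of 183 and 173 reads, against 34 for all members, and well-read genes ranked high in both series. No gene of the mitochondrial genome was a member.

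The 20 genes of ethanol use, the glyoxylate cycle and gluconeogenesis had medians of 82.4 in the arrest and 80.3 in WT. They too were well read, with a median of 129 reads against 34 for all members. Single enzymes of the list differed. ICL1 and MLS1, the enzymes of the glyoxylate cycle, ranked at 95.9 and 96.8 in the arrest and at 86.7 and 86.5 in WT. ADH2, which oxidises ethanol, ranked at 34.1 in the arrest and 84.8 in WT, and ACS1, an acetyl-CoA synthetase, at 47.6 in the arrest and 99 in WT. ADH2 and ACS1 were the only members of the list past the limit, both downward. These 2 of 20 are close to the 9.99% of all members counted as lower. ICL1 and MLS1 were named after their values were seen.

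Glycolytic genes ranked lower in the arrest than in WT. The 18 members had medians of 36.6 in the arrest and 71.8 in WT, and 14 of the 18 ranked lower in the arrest, 5 of them past the limit, beside 9.99% of all members. ENO2, an enolase, ranked at 8.8 in the arrest and 83.3 in WT, while TDH3, glyceraldehyde-3-phosphate dehydrogenase, had the largest difference in favour of the arrest, at 69.3 in the arrest and 38.8 in WT. Of the 7 measured hexose transporters and sensors, 6 lay at or below percentile 13.4 in the arrest. HXT7, a high-affinity glucose transporter, ranked at 6.61 in the arrest and 70.4 in WT, and its near-identical neighbour HXT6 at 8.02 in the arrest and 67.8 in WT. The exception was STL1, a glycerol transporter of the same protein family, at 82.2 in the arrest and 26.4 in WT. Only 7 of 21 scored genes of this list had 10 reads, and over all 21 the median difference was -8.26 points, against -50.5 among the 7.

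Amino acid synthesis ranked high in the arrest. Its 61 members had medians of 85.3 in the arrest (interquartile range 74.1 to 92) and 65.3 in WT (32.1 to 87.5), with 14 higher in the arrest, 1 lower and 19 high in both. CYS3, an enzyme of cysteine synthesis, showed the largest difference upward of all matched genes with at least 50 reads, with -0.00156 per fl in the arrest (percentile 96.2) and -0.27 per hour in WT (percentile 1.54). HOM6, an enzyme of threonine and methionine synthesis, ranked at 83.9 in the arrest and 0.905 in WT. GLN1, glutamine synthetase, was the only gene of the list counted as lower, at 46.3 in the arrest and 98.8 in WT. The site of Gcn4, the activator of these genes, has the letters TGACTC and stood in 47.5% of the list's promoters and in 8.07% of all. The 29 genes of the list with the site had medians of 87.3 in the arrest and 70.3 in WT, and the 32 without it had 84.1 in the arrest and 50.2 in WT.

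Iron and copper uptake also ranked high in the arrest, with medians of 85.5 in the arrest and 55.7 in WT for 19 members, 3 of them higher past the limit and none lower. ENB1, a siderophore transporter, ranked at 81.6 in the arrest and 2.1 in WT, and FRE7, a ferric or cupric reductase, at 35.5 in the arrest and 77.9 in WT. Among the 7 genes of this list with at least 50 reads the median difference was -4.25 points, so its sign rests on genes with fewer reads.

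Proteasome and autophagy genes were low in the arrest. The 34 proteasome genes had medians of 28.3 in the arrest and 47.2 in WT, with 7 lower and 2 higher, beside 9.99% and 9.19% of all members. RPN4, which encodes the activator of proteasome genes, scored -0.0437 per fl in the arrest (percentile 2.03) and 0.331 per hour in WT (percentile 96.3). RPN10, a ubiquitin receptor of the proteasome, stood at 82.4 in the arrest and 12.9 in WT. The 25 autophagy genes had medians of 23.3 in the arrest and 40.4 in WT. Of the 25, only 2 were lower and 1 higher past the limit, no more than the same shares of all members. A further 6 were low in both, beside 7.99% of all members. ATG13, a regulator of the kinase Atg1, ranked at 22.8 in the arrest and 98.6 in WT, and ATG1 itself at 65 in the arrest and 5.79 in WT. Without a read minimum, 34 autophagy genes had a median difference of 0.603 points, against -20.3 among the 25, so its direction rests on the minimum. General stress genes, by contrast, stood in the middle, with medians of 50.1 in the arrest and 53.1 in WT over 24 genes, and HSP26, a small heat shock protein, was the lowest against WT, at 15.1 in the arrest and 90.8 in WT.

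**Figure D4:**
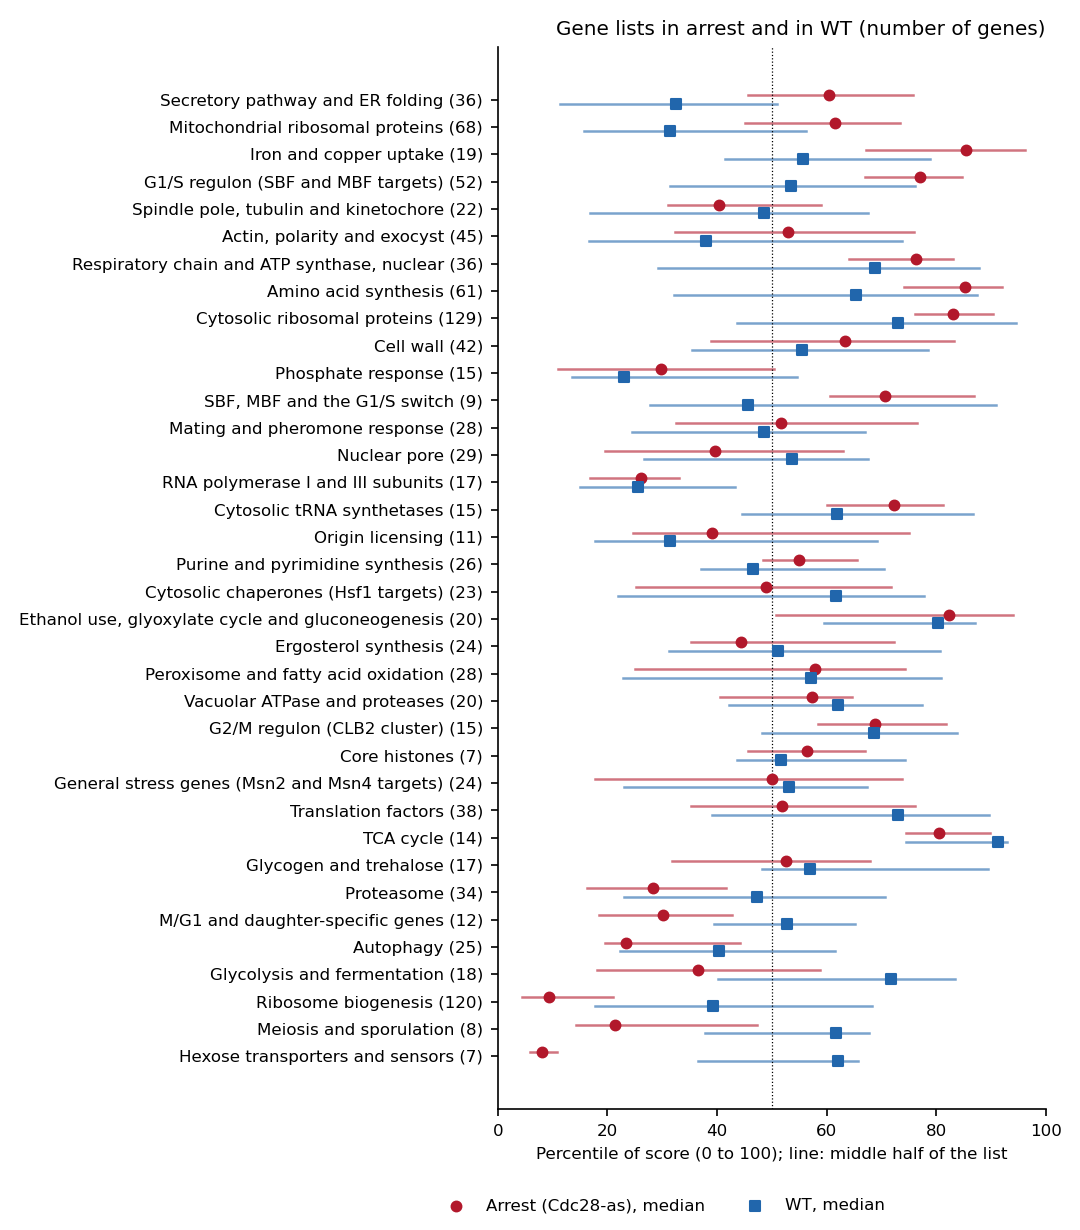
Median percentile of the score (horizontal axis, 0 to 100) of each gene list with at least 5 members, with the interquartile range as a line, for the arrest in red above WT in blue. The Pdr and Ty lists, described below and drawn up after the values were seen, are left out. The number of genes stands in brackets and lists are ordered by their median difference. Secretory pathway genes (60.4 in the arrest, 32.5 in WT) are at the top, and hexose transporters (8.02 in the arrest, 62 in WT) at the bottom.

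The 10 largest differences in each direction among matched genes with at least 50 reads included genes of the lists above and others. Upward they were CYS3, CDC21, YNK1, RPS22A, VMR1, MRPL9, SMT3, TIM23, HOM6 and MRPS8. YNK1, nucleoside diphosphate kinase, ranked at 94 in the arrest and 1.59 in WT, SMT3, the yeast SUMO, at 84.8 in the arrest and 1.07 in WT, and TIM23, the core of the inner membrane import channel, at 89.9 in the arrest and 6.5 in WT. Downward they were SNX41, IFH1, RPN4, YAP1, DBP7, MLP2, SSM4, NSR1, XBP1 and UBX5. SNX41, a sorting nexin, ranked at 2.2 in the arrest and 100 in WT, and YAP1, the activator of the oxidative stress response, at 5.7 in the arrest and 95.9 in WT. SSM4, a ubiquitin ligase of the endoplasmic reticulum, ranked at 5.3 in the arrest and 93.9 in WT, and UBX5, a partner of Cdc48, at 8.66 in the arrest and 95.6 in WT.

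At the lowest end of the arrest stood targets of Pdr1 and Pdr3, the activators of drug efflux. This list was drawn up after the values were seen, so its counts are a description of where these genes lie. The 18 members had a median percentile of 0.423 in the arrest and 41.3 in WT, and they made up 12 of the 50 lowest arrest scores. PDR5, the main drug efflux pump, scored -0.116 per fl in the arrest (percentile 0.0822) and -0.113 per hour in WT (percentile 21.1). SNQ2 and YOR1, also efflux pumps, stood at 0.223 and 0.153 in the arrest and at 79.2 and 23.4 in WT. YGR035C had the lowest arrest score of all members, -0.346 per fl, and ranked at 22 in WT. YLL056C was the single gene of the list above the median gene in the arrest, at 73.6 in the arrest and 36.8 in WT.

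On the assumed formula, a gene that never exceeds its level in the first library cannot score below -0.0561 per fl in the arrest or below -0.205 per hour in WT. In the arrest 21 members (0.493%) lay below this bound, 9 of them in the Pdr list, and in WT 147 members (3.45%) did. PHO84, the high-affinity phosphate transporter, was 1 of the 21, at -0.0656 per fl in the arrest (percentile 0.247) and 0.0101 per hour in WT (percentile 69.1). UGA4 and AGP1, which take up 4-aminobutyrate and amino acids, were others, with -0.157 and -0.0701 per fl in the arrest and -0.0716 and -0.039 per hour in WT. For these genes the formula puts the highest level in a library other than the first, which the table cannot show directly. UGA4 and AGP1 were named after their values were seen.

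At the highest end stood Ty retrotransposons and TAR1, a gene inside the ribosomal DNA, both chosen after their values were seen. The 85 Ty genes had medians of 98.4 in the arrest and 82 in WT, and they made up 58 of the 139 arrest scores above 0 and 60 of the 407 genes high in both. The list takes all gag and gag-pol genes and was not split by Ty family. Copies within a family are much alike in sequence and can share reads, so the 85 scores are not separate observations. The Ty genes were not uniform either. Of the 85, 11 were counted as lower in the arrest, beside 9.99% of all members, among them YDR034C-D at 32 in the arrest and 95.4 in WT. Whether these 11 belong to 1 family was not looked at. TAR1 (chrXII:454696-455070) held the highest arrest score, 0.259 per fl, and 0.019 per hour in WT. It lies on the strand opposite the 25S ribosomal RNA gene RDN25-1. The sources used here do not say whether counting used strand, so reads of TAR1 and of ribosomal RNA cannot be told apart.

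Coding length moved weakly with the ranks. The median coding region was 1113 bases for genes higher in the arrest, 1658 for genes lower, 1323 for those high in both and 1437 for those low in both, against 1316 bases for all members with a length. Spearman's rank correlation of score with length across 4216 genes was -0.11 in the arrest and 0.08 in WT. Its part in the counts was not tested.

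The unelutriated arrest ranked several lists unlike the 3 elutriated arrests of the same genotype. Its rank correlation with the elutriated arrests was 0.26, 0.01 and 0.10 in experiments 1, 2 and 3, and 0.06 with the elutriated WT control, across 4106 to 4255 genes. Ribosome biogenesis genes had a median of 9.26 in the unelutriated arrest, against 82.1, 92.2 and 76.6 in the elutriated arrests. Ethanol use genes had a median of 82.4, against 16.4, 23.8 and 17. G1/S genes were high in all 4 arrests, with 77.1 in the unelutriated and 93.4, 87.6 and 84.3 in the elutriated ones, and 53.4 in unelutriated and 40 in elutriated WT. Each series has 1 score per gene, so these differences were not tested.

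**Figure D5:**
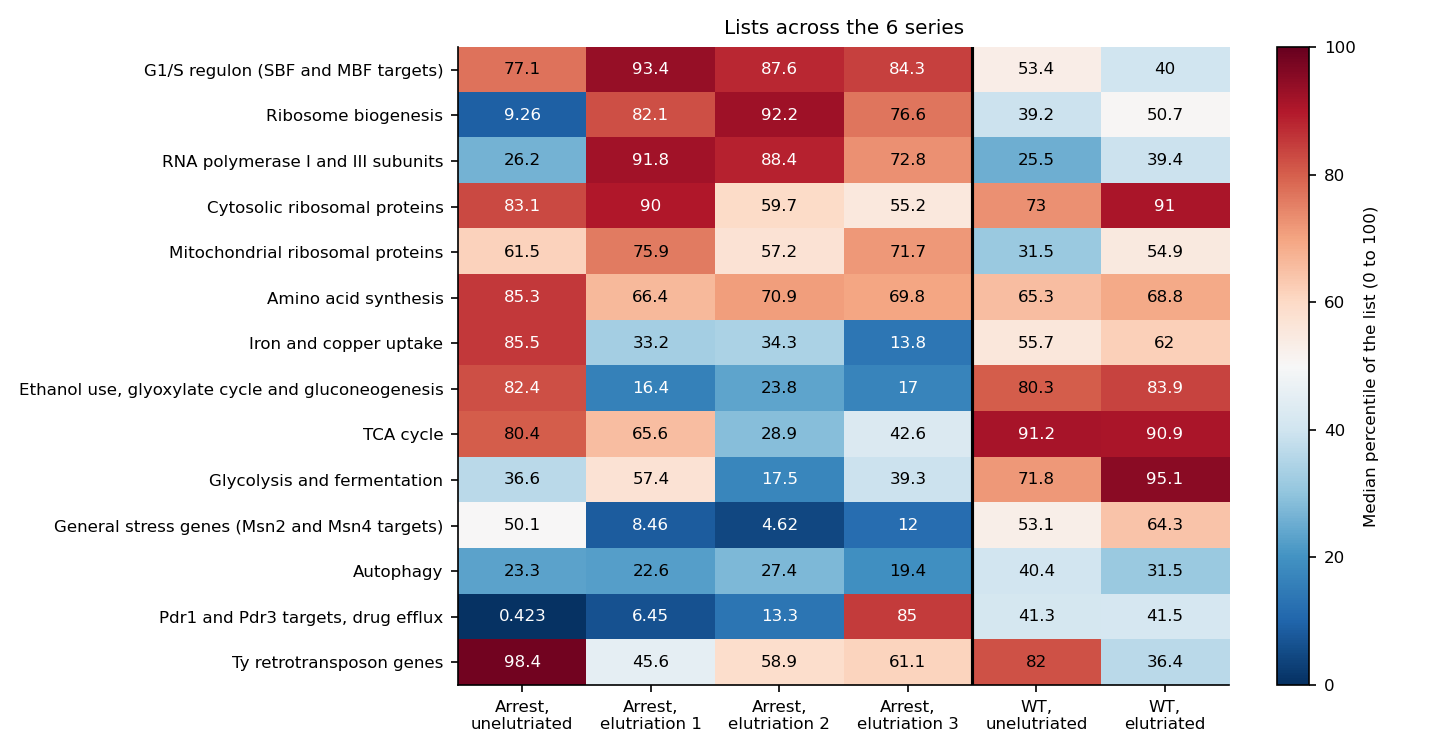
Median percentile (colour and number, 0 to 100) of 14 gene lists in the 6 series, with the 4 Cdc28-as arrests left of the line and both WT series right of it. Ribosome biogenesis is low in the unelutriated arrest alone among the arrests (9.26 against 76.6 to 92.2), and the G1/S regulon is at 77.1 or above in all 4 arrests. The last 2 lists were chosen after their values were seen.

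Genes counted in this comparison were also looked up in the elutriated series, whose scores the counts did not use, although the read minimum came from the first of them. The genes higher in the unelutriated arrest had median percentiles of 64, 59.4 and 57.3 in elutriated arrests 1, 2 and 3, and 36.8 in elutriated WT. The genes lower in it had 32.7, 47.3 and 38.8 in the elutriated arrests and 54.4 in elutriated WT. Both groups thus lay on the same side of 50 in all 4 elutriated series as in the series that chose them, with medians of the lower group closest to 50 in experiment 2.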

How the data were processed

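Total RNA of both unelutriated series was extracted with hot acid phenol and made into libraries with the NuGEN Ovation Universal kit, per the labels' protocols. The submitters' processing notes name Bowtie2 and build R64. The sources used here do not say how reads were counted, whether strand was used, how depth was normalized or whether Candida reads were used. The authors deposited 1 scaling score per gene and series, and a median read count of the first elutriation experiment, a signal that is not whole for many genes. Depth per library was not analysed here, so no counting error could be given.

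The median over nuclear genes (identifier not starting with Q) was subtracted per series, and members were ranked as percentiles with Python 3.11.15, pandas 2.3.3 and numpy 2.4.6. Limits were 50 points for a difference, 75 for high and 25 for low. With 1 score per series there is no test, and no replicate number could pair samples. Ranking and counting were tested on simulated scores with planted differences. Motifs were searched on both strands of the RefSeq R64 genome, where RefSeq lists the gene.

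The members and gene lists were chosen with earlier results of these data known. The Pdr and Ty lists, the motif CCGCGG, the coding lengths and the limits for list differences between series were added after the values were seen. Named genes were the 10 largest and 10 smallest differences among matched genes with at least 50 reads, the highest, lowest and middle member of each list, the Cdc28 subunits, cyclins, inhibitors and histones, and the 3 best-read genes of each count. Genes named beyond these, among them RNR1, CDC9, CDC45, RFA2, HXT6 and those marked in the text, were chosen after their values were seen. Alternatives were no read minimum, a minimum of 50, matched identifiers only, no tied scores, percentiles among all scored genes, other centring and scaled scores.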

Additional observations from a re-analysis of the deposited data

Results flagged for a closer look

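For 5 lists the unelutriated arrest lay on one side of the median gene and all 3 elutriated arrests on the other, by at least 10 points each way. The limits of 40 and 60 were chosen after the values were seen, and with 1 score per gene and series the difference was not tested. Ribosome biogenesis had a median percentile of 9.26 in the unelutriated arrest, against 82.1, 92.2 and 76.6 in elutriated arrests 1, 2 and 3. RNA polymerases I and III had 26.2, against 91.8, 88.4 and 72.8. Ethanol use, the glyoxylate cycle and gluconeogenesis had 82.4, against 16.4, 23.8 and 17. Iron and copper uptake had 85.5, against 33.2, 34.3 and 13.8. Meiosis and sporulation had 21.3, against 68.6, 76.5 and 88.4, over the 8 of its 45 genes that passed the read minimum. That minimum used the read count of elutriated arrest 1, so these 8 were picked through a series of this contrast. The elutriated medians were not computed for the genes left out. The list's median difference between arrest and WT was -30.8 points over these 8 genes and -6.31 points over all 43 scored genes, so its size rests on the read minimum. In unelutriated WT these lists had medians of 39.2, 25.5, 80.3, 55.7 and 61.7 in the same order, so ribosome biogenesis and the polymerases were below the median gene there too. The series also differ in elutriation, in sizes and in the number of libraries, and the part of each was not tested.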

How the results depend on the processing

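Leaving out a replicate could not be run, since the table has no value per library. No paired analysis was possible because the table has 1 score per series. With a read minimum of 50, which leaves 1482 genes, 114 genes (7.69%) were higher in the arrest and 130 (8.77%) lower. A further 154 (10.4%) were high in both and 140 (9.45%) low in both, and the rank correlation was 0.30. Without a minimum, over 6305 genes, 612 (9.71%) were high in both, close to the 9.56% of the 4256 members. The other counts stayed within 1.5 times. Without a minimum their shares were 9.15% higher in the arrest, 9.75% lower and 8.04% low in both. Pearson's correlation on scaled scores was 0.10. Without centring, 96 genes lay above 0 in both series, 43 only in the arrest, 1345 only in WT and 2772 in neither. Of 256 values of list differences under the alternatives, over 38 lists, 16 changed sign. Of these, 13 belong to lists whose difference was under 10 points, among them the CLB2 cluster (19.2 points without a minimum) and general stress genes (18.9 points with a minimum of 50), and 3 to lists with a larger one. Autophagy turned to 0.603 points without a minimum, iron and copper uptake to -4.25 points with a minimum of 50, and Ty genes to -0.0805 on scaled scores; the cause was not tested. Without Ty genes, an alternative added after the data were seen, 397 genes were higher in the arrest and 372 high in both. The median read count of the members was 34, taken from another series, and what few reads did to the scores compared here was not tested.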

Other observations

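The 15 phosphate genes had medians of 29.7 in the arrest and 23.1 in WT. Among them 4 ranked above percentile 50 in the arrest and 5 did in WT, and 2 had a percentile of at most 25 in both. KCS1, an inositol hexakisphosphate kinase, and PHM8, a phosphatase, ranked near PHO84 at the bottom of the arrest, at 0.717 and 0.928 in the arrest and at 62.8 and 53.3 in WT, whereas the polyphosphate synthesis gene VTC1 stood at 68.5 in the arrest and 17.5 in WT. KCS1 and PHM8 were named after their values were seen.

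Cytosolic chaperones, the targets of Hsf1, were split by single genes. Their 23 members had medians of 48.9 in the arrest and 61.7 in WT, but a median difference of 0.329 points, and 12 of the 23 ranked higher in the arrest. HSP60, the mitochondrial chaperonin kept on this list, ranked at 84.4 in the arrest and 18.4 in WT. SIS1, a J-protein, ranked at 25.4 in the arrest and 93 in WT, and SSA3, an inducible Hsp70, was at the bottom of both, at 0.905 in the arrest and 0.576 in WT. The core of the Pdr1 and Pdr3 site, CCGCGG, stood in 3 of 18 promoters of the Pdr list (16.7%) and in 1.21% of all promoters in the window searched. Within the list it did not go with the lowest ranks. The 3 genes with it had a median percentile of 25.6 in the arrest, and the 15 without it 0.341. Over all members, the 51 genes with it had a median of 58.2 in the arrest, and the 4162 without it 49.7.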
